A study of Mus musculus with 10 samples.

Results

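Of 38 genes listed as interferon-induced genes, immunoproteasome subunits and B2m, 36 were measured here, out of 18193 genes with a probe set annotated to exactly 1 symbol. Where a gene had several such probe sets, the brightest on average was used. Isg15 and Ifi44 had no probe set of exactly 1 symbol and were left out, and of the 36 measured genes 34 reached the median of all values (log2 5.27) on at least 1 array, all except Cmpk2 and Mx1. By role, 5 genes belong to interferon signalling and feedback, 4 are sensors of foreign RNA or DNA, 18 are antiviral effectors, 5 are interferon-induced GTPases and 4 act in antigen processing.

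Type I interferons are secreted when a cell senses foreign nucleic acid. Type I interferon acts through JAK kinases on transcription factors, STAT2 and IRF9 among them, that bind the interferon-stimulated response element (ISRE), and type II interferon acts mainly on the gamma-activated site (GAS). The induced genes block viral replication, attack intracellular pathogens with large GTPases and adapt the proteasome and peptide transporter to supply MHC class I molecules.

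The samples were differentiating embryonic stem cells from C57BL/6 mice, read on 1 array for each of 10 conditions. The conditions were KGF and untreated control at day 8, and KGF with DCI, DCI alone, KGF alone and control at days 17 and 24. KGF is keratinocyte growth factor, and DCI is taken to be the dexamethasone and raised cAMP that the title of the series names, since the labels do not spell it out. No DCI array exists at day 8, and nothing in the labels says how many cultures an array represents.

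The values are log2 expression, so a difference of 1 is a 2-fold change. With no replicate arrays, each p-value measures only the spread around an additive model of day, KGF and DCI (limma, 5 residual degrees of freedom), and errors are standard errors of that fit. The threshold was an adjusted p of 0.05 over the 18193 genes. The day 8 control array stood apart in all 3 control measures computed: its Actb 3′ signal exceeded the 5′ signal by 1.05 on the log2 scale, against 0.46 to 0.62 on the other arrays, and the corresponding gap was 0.44 for Gapdh, against -0.02 to 0.12, and 4.80 for the dap control, against 1.35 to 2.68. The 6 pluripotency markers had a median between log2 4.41 and 6.34 on every array. The brightest of them, Dppa5a, read 6.78 to 9.36, highest at day 17 with KGF and DCI.

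Promoter windows show which of these genes carry the letters that interferon-activated factors recognise. Windows of 250 bases before to 50 bases after the annotated start, from RefSeq on GRCm38.p6, were found for 27 of the 36 genes (32 windows). The ISRE letters searched were GAAANNGAAA or TTTCNNTTTC, and the GAS letters were TTCNNNGAA, which read the same on both strands. The ISRE letters stood in 15 of the 32 windows (46.9%), against 3.44% of all 32851 windows, and the GAS letters in 7 (21.9%), against 8.3%. Either was present in 19 windows (59.4%, against 11.3%), which belong to 18 genes.

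Windows are shown for 6 genes that behaved differently on the arrays: Bst2, higher with DCI, Psmb8 and B2m, lower with DCI, Tap1, which did not pass for DCI, Ifit1, a late riser, and Gbp2, an early riser. Each is written 5′ to 3′ on the strand of the gene, with ISRE and GAS letters in capitals. They lie at chr8:71537423-71537722 (minus strand, Bst2), chr17:34197945-34198244 (plus, Psmb8), chr2:122147437-122147736 (plus, B2m), chr17:34187306-34187605 (plus, Tap1), chr19:34640639-34640938 (plus, Ifit1) and chr3:142620413-142620712 (plus, Gbp2).
Bst2: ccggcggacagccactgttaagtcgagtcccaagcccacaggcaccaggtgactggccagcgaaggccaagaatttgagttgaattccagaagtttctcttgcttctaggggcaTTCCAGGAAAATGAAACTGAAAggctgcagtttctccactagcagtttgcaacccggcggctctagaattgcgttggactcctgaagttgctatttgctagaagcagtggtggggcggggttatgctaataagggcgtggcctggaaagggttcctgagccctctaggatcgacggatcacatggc
Psmb8: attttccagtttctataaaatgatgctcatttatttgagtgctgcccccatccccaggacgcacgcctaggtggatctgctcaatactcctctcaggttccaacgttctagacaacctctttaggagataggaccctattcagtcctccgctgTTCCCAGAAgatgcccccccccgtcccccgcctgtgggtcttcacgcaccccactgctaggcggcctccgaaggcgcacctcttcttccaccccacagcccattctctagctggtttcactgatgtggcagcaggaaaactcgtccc
B2m: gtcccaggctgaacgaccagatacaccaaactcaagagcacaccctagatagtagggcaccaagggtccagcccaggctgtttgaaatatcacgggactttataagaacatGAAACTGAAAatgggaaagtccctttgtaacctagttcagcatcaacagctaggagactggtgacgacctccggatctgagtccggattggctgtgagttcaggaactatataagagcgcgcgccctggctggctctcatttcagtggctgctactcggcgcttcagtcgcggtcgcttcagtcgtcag
Tap1: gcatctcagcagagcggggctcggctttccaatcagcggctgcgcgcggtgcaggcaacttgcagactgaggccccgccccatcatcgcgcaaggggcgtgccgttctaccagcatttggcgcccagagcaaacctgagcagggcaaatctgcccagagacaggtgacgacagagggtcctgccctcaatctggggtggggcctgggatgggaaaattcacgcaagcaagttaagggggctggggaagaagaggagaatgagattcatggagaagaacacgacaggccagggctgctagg
Ifit1: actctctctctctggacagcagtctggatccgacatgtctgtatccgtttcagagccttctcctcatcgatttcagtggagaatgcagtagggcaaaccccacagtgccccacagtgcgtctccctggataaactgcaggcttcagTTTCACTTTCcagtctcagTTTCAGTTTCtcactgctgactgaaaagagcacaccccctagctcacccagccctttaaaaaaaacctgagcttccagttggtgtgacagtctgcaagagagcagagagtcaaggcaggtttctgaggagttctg
Gbp2: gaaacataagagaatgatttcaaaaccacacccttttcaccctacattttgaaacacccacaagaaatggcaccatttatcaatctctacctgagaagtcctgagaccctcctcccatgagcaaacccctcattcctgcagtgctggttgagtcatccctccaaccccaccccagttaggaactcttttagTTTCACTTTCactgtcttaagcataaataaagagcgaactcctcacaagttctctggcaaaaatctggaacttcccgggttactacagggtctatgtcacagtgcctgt

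Bst2 had overlapping ISRE matches, GAAAATGAAA at position -130 and GAAACTGAAA at -124, and a GAS match, TTCCAGGAA, that overlaps the first of them at -136, with positions counted from the annotated start to the first base of the match. B2m had GAAACTGAAA at -139, Ifit1 had TTTCACTTTC at -104 and TTTCAGTTTC at -85, and Gbp2 had TTTCACTTTC at -59. Psmb8 had TTCCCAGAA, a GAS match, at -97. The Tap1 window held neither set of letters. Psmb9 and Tap1 start next to each other on opposite strands: the window of Psmb9, chr17:34187281-34187580 on the minus strand, shares 275 bases with that of Tap1. Among genes with a window, the ISRE letters were found in 1 of the 2 that were higher with DCI, in 5 of the 8 that were lower and in 8 of the 17 that did not pass.

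**Figure D1:**
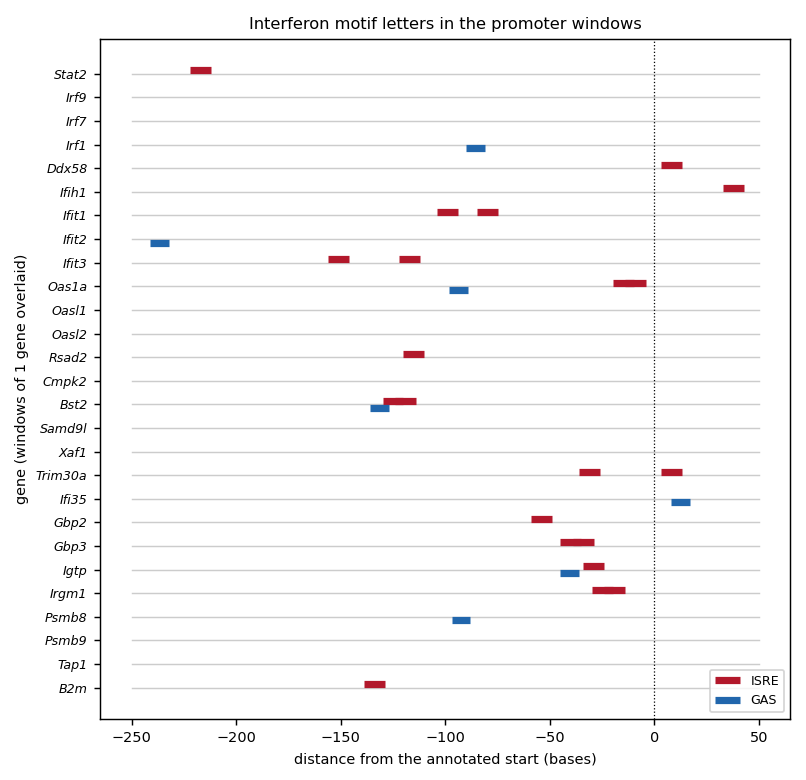
Positions of ISRE (red) and GAS (blue) letters in the promoter windows of the 27 genes, with distance from the annotated start in bases on the x axis and 1 gene per row. ISRE matches begin between -222 and 33 and GAS matches between -241 and 8.

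The median level of the 36 genes was ordered by day. It was log2 5.37 with KGF and 5.47 in control at day 8. At day 17 it was 6.36 with KGF and DCI, 6.55 with DCI, 6.73 with KGF and 6.91 in control, and at day 24 it was 7.15, 7.36, 7.33 and 7.44 for the same treatments in the same order. The day 8 arrays lay below all day 17 arrays, and these below all day 24 arrays. The highest value of a gene was on a day 24 array for 33 of the 36 genes. It was on the day 24 DCI array for 16 of them and on the day 24 control array for 12. The lowest value was on a day 8 array for 28 of the 36. The same counts were not made over all genes, so these are description only.

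**Figure D2:**
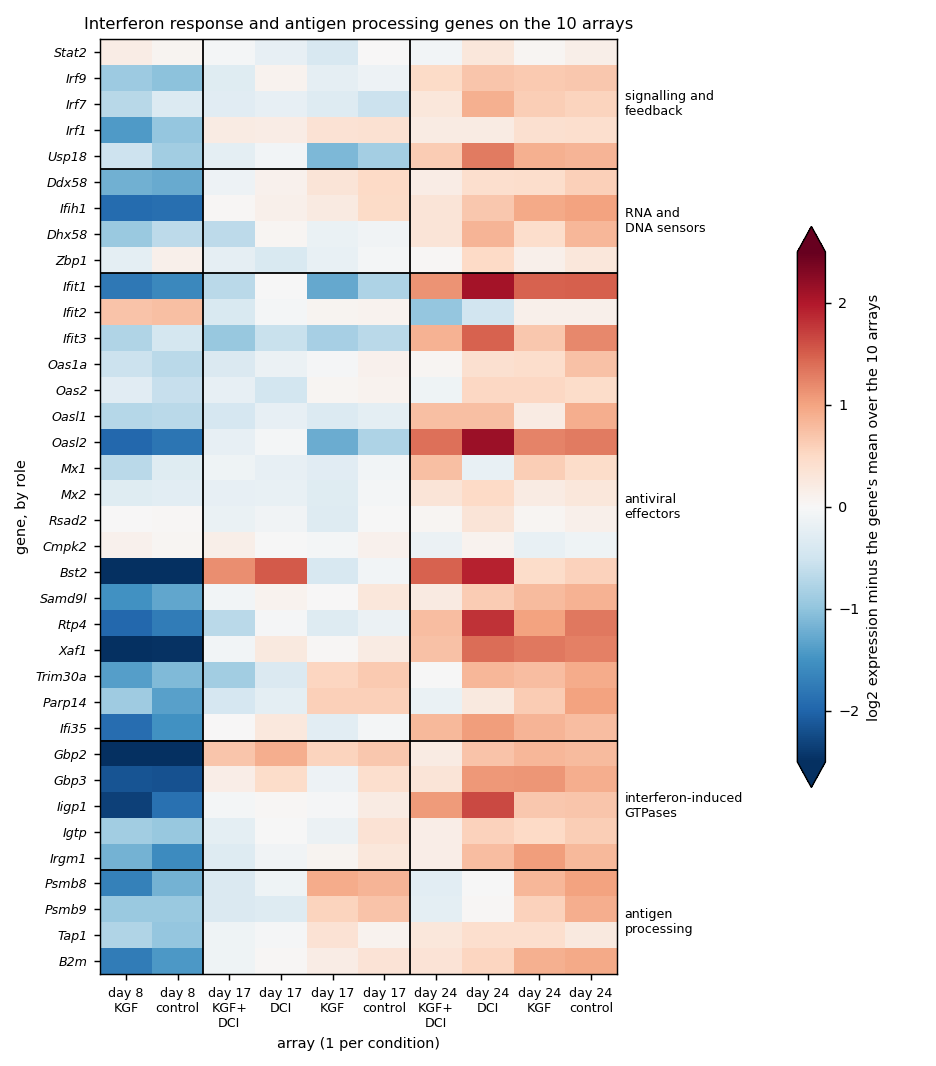
Log2 expression of the 36 genes (rows, by role) on the 10 arrays (columns), each shown as the difference from the gene's mean over the arrays. Most genes are low (blue) at day 8, and Psmb8, Psmb9 and Parp14 are lower on the DCI arrays than on the arrays without DCI of the same day.

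The first question was which of these genes were active at day 17, against day 8. No day 8 array had DCI, so the fitted day difference was adjusted for the DCI difference over days 17 and 24. It stands for arrays without DCI and is not the gap between the averages of all arrays of the 2 days. At day 17, 24 of the 36 genes were higher, 1 was lower and 11 did not pass, while 21.4% of all genes were higher and 21% lower. The median difference was 1.01, against -0.02 over all genes. In both pairs of arrays of the same treatment, 27 genes were higher (37.1% of all genes) and 4 lower (39.7%). All 5 GTPases and all 4 antigen processing genes rose, as did 3 of 4 sensors and 10 of 18 antiviral effectors, but among the signalling genes Irf1 and Irf9 alone of 5. Without the day 8 control array, 22 were higher and none was lower.

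Gbp2, a guanylate-binding protein that acts at membranes of intracellular pathogens, had the largest rise. It read 7.77 with KGF and DCI, 7.99 with DCI, 7.63 with KGF and 7.76 in control at day 17, against 4.45 with KGF and 4.35 in control at day 8. The day 17 and day 8 arrays did not overlap, and the difference of 3.43 ± 0.17 was 10.8-fold (adjusted p = 9.61e-08). Its relative Gbp3 rose by 2.43 ± 0.21 and the immunity-related GTPases rose too, Iigp1 3.99-fold, Irgm1 by 1.57 ± 0.18 and Igtp by 1.02 ± 0.13.

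Bst2, which encodes tetherin, a membrane protein that holds budding virus particles at the cell surface, followed. It read 10.87 with KGF and DCI, 11.23 with DCI, 9.30 with KGF and 9.62 in control at day 17. At day 8 it read 6.43 with KGF and 6.33 in control. The fitted rise, adjusted for DCI, was 9.09-fold (3.18 ± 0.14, adjusted p = 3.23e-08). Xaf1, a proapoptotic interferon-induced gene, rose by 2.73 ± 0.14, and Samd9l, an antiviral factor that restricts poxviruses, by 1.62 ± 0.11. All day 17 values of Bst2 exceeded both day 8 values by more than the spread within either day.

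The antigen processing genes rose together. Psmb8, a catalytic subunit that replaces a standard one in the immunoproteasome, rose by 2.31 ± 0.14 (4.94-fold, adjusted p = 3.19e-07), and its partner subunit Psmb9 by 1.53 ± 0.13. B2m, the invariant light chain of MHC class I, rose by 1.89 ± 0.08 (adjusted p = 1.55e-08). Tap1, a subunit of the peptide transporter of the endoplasmic reticulum, rose by 1.01 ± 0.14. The further, dimmer probe sets did not follow for Tap1 (-0.19, 0.07 and 0.03) or Psmb8 (0.18), whereas that of B2m did (2.06). Among 14 other class I and peptide-loading genes, 11 rose and none fell, whereas of 14 standard proteasome subunits 1 rose and 2 fell.

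The RNA sensors Ifih1 (MDA5) and Ddx58 (RIG-I) rose by 2.30 ± 0.12 and 1.59 ± 0.12, and Dhx58 (LGP2), their regulator, by 0.64 ± 0.16. Zbp1, a sensor of Z-form nucleic acid, had a difference of -0.11 (adjusted p = 0.635). Of the transcription factors, Irf1 rose by 1.57 ± 0.11 and Irf9 by 0.83 ± 0.12, while Irf7 (0.13, adjusted p = 0.631) and Stat2 (-0.31, adjusted p = 0.141) did not pass. Ifit2, a binder of viral RNA, was the gene that fell. It read 6.52 with KGF and DCI, 6.86 with DCI, 6.97 with KGF and 6.99 in control at day 17. At day 8 it read 7.62 with KGF and 7.65 in control. Adjusted for DCI, the fitted difference was -0.52 ± 0.18 (adjusted p = 0.0365). All 4 day 17 values lay below both day 8 values, and the fall did not pass without either day 8 array, the day 17 control or KGF array, or the day 24 DCI array.

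Macrophage markers moved over the same interval. All 20 rose between the 2 days, with a median difference of 5.22, and their summed linear signal was between 8266 and 24087 on the day 17 arrays, against 744 and 755 at day 8. Red cell markers went the other way: all 4 measured fell, with a median difference of -7.87 and a summed signal of 103 to 237 at day 17, against 30671 and 31401 at day 8. Of 7 endothelial markers 3 fell and none rose (limma, 4 at an unadjusted p under 0.05). None of these markers is an interferon or antigen processing gene of the list, and their part in the rise of those genes was not tested. In bulk cultures, fewer cells of a type and less RNA per cell cannot be told apart. Of 39 other interferon-induced genes, 25 rose and none fell, with a median of 0.88.

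The second question was how the genes went on after day 17. At day 24, 26 of the 36 genes were higher than at day 17, none was lower and 10 did not pass (limma, 29 at an unadjusted p under 0.05 in either direction), while 14.8% of all genes were higher and 22.5% lower. The median difference was 0.56, against -0.01 over all genes. Of the antiviral effectors 15 of 18 were higher, with a median of 0.57, of the GTPases 4 of 5 (median 0.63), of the signalling genes 3 of 5 (median 0.76), and of the antigen processing genes B2m alone of 4.

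Ifit1, which recognises viral RNA by its cap, had the largest rise. It read 7.51 with KGF and DCI, 8.47 with DCI, 7.86 with KGF and 7.89 in control at day 24, against 5.72, 6.38, 5.11 and 5.63 for those treatments at day 17. The 2 days did not overlap, and the difference was 2.22 ± 0.17 (4.67-fold, adjusted p = 5.21e-06). Oasl2, of the oligoadenylate synthetase family, read 6.32, 7.07, 6.17 and 6.23 at day 24, against 4.74, 4.89, 3.70 and 4.17 at day 17 (2.07 ± 0.14, 4.21-fold). Ifit3, a relative of Ifit1, read 7.56, 8.16, 7.37 and 7.89 at day 24, against 5.74, 6.14, 5.87 and 6.02 at day 17 (1.80 ± 0.10, 3.49-fold). Both stood higher at day 24 on every array, and Ifit3 had not risen at day 17 (-0.21, adjusted p = 0.251).

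Rtp4, an interferon-induced chaperone, rose by 1.52 ± 0.14, and Usp18, the protease that removes ISG15 and damps the type I receptor, by 1.48 ± 0.18. Irf7, the factor that amplifies type I interferon, rose by 0.92 ± 0.14 and Irf9 by 0.76 ± 0.09. Neither Usp18 nor Irf7 had passed between days 8 and 17. Rises also passed for Oasl1 (0.96), Ifi35 (0.88), Mx1 (0.58), Mx2 (0.52), Oas2 (0.48) and Rsad2, or viperin (0.28), none of which except Ifi35 had passed at day 17, while Cmpk2 lay between 4.25 and 4.58 on all 10 arrays. In contrast, Gbp2 (-0.07), Irf1 (0.02), Psmb8 (0.07) and Psmb9 (0.17) had differences near 0 that did not pass, with adjusted p between 0.2 and 0.852, and the 95% interval of Psmb8 ran from -0.16 to 0.30. Tap1 also missed the threshold (0.26, adjusted p = 0.0696).

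Rises passed both with and without DCI. With DCI 24 of 36 were higher at day 24 and 1, Ifit2, was lower (12% and 22.1% of all genes), and without DCI 22 were higher and none lower (11.8% and 15.8%). Of the 20 macrophage markers, with DCI 16 were lower and 2 higher, median -1.56, and without DCI 3 were lower and 1 higher, median -0.08. On the DCI arrays the summed signal of these markers was 5267 with KGF and 6457 without it at day 24, against 8266 and 9620 at day 17.

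**Figure D3:**
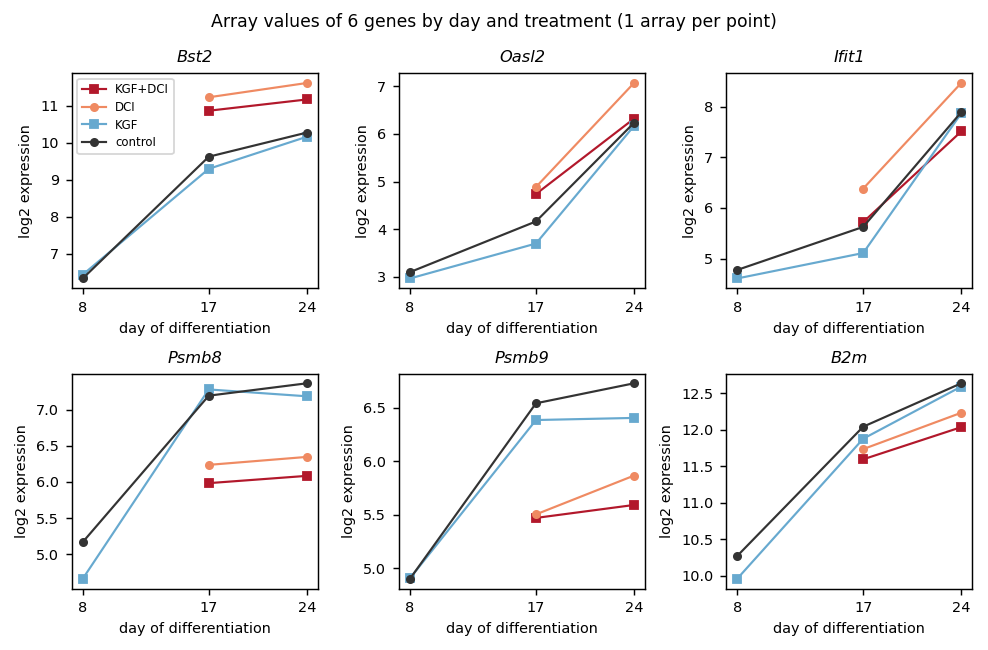
Log2 expression of 6 genes against day of differentiation (8, 17 and 24), with 1 array per point and 1 line per treatment; each panel has its own y axis. Bst2 is highest on the DCI arrays, Psmb8, Psmb9 and B2m are lower there, and Oasl2 and Ifit1 rise mainly between days 17 and 24.

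The third question was what DCI did. Over both days, 2 of the 36 genes were higher with DCI, 9 were lower and 25 did not pass, while 7.27% of all genes were higher and 8.09% lower (2793 genes together, 1638 without the day 24 control array and 1821 without the day 24 DCI array). The median difference was -0.10, against -0.01 over all genes. The genes did not move as a block: Bst2 and Oasl2 rose, whereas 3 of 4 antigen processing genes, 2 of 4 sensors and 4 of 18 antiviral effectors fell. None of the GTPases or signalling genes passed. In all 4 matched pairs, 13 genes were lower, where 18.2% of all genes were, and 2 were higher, where 17.2% were. The number lower was 5 without the day 24 control array and 5 without the day 24 KGF array, where Ddx58, Ifih1, Ifit2 and Oas1a no longer passed. The number higher was 4 without the day 24 KGF array and 4 without the day 24 array with KGF and DCI.

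Bst2 had the largest rise. At day 17 it read 11.23 with DCI and 10.87 with KGF and DCI, against 9.62 in control and 9.30 with KGF. At day 24 it read 11.62 and 11.17 with DCI, alone and with KGF, against 10.28 in control and 10.16 with KGF. The 4 DCI arrays lay above the 4 arrays without it, also across days, and the difference was 1.38 ± 0.11 (2.61-fold, adjusted p = 1.71e-05). Oasl2 was higher by 0.69 ± 0.14 (1.61-fold, adjusted p = 0.0081). It read 4.89 with DCI and 4.74 with KGF and DCI, against 4.17 in control and 3.70 with KGF at day 17, and 7.07 and 6.32, against 6.23 and 6.17, at day 24. At day 24 the array with both treatments was only slightly above control.

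Both immunoproteasome subunits fell. Psmb8 read 6.24 with DCI and 5.98 with KGF and DCI at day 17, against 7.19 in control and 7.28 with KGF. At day 24 it read 6.35 and 6.08, against 7.36 and 7.18. The 4 DCI arrays all lay below the 4 others, but above both day 8 arrays (4.66 with KGF and 5.17 in control). The difference was -1.09 ± 0.10 (2.13-fold lower, adjusted p = 6.62e-05), while the other probe set of Psmb8, dim on every array, had -0.07. Psmb9 read 5.50 with DCI and 5.47 with KGF and DCI at day 17, against 6.54 in control and 6.38 with KGF, and 5.86 and 5.59, against 6.73 and 6.40, at day 24. It fell by 0.91 ± 0.10 on the log2 scale (adjusted p = 0.000167), again with no overlap of the groups.

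B2m also fell, but by less, and Tap1 did not pass. B2m read 11.74 with DCI and 11.60 with KGF and DCI at day 17, against 12.04 in control and 11.88 with KGF, and 12.23 and 12.04, against 12.64 and 12.59, at day 24. It was lower in all 4 pairs (-0.39 ± 0.06, adjusted p = 0.0011). Tap1, whose window overlaps that of Psmb9, read 6.84 with DCI and 6.76 with KGF and DCI at day 17, against 6.96 in control and 7.23 with KGF, and 7.28 and 7.15, against 7.12 and 7.29, at day 24. Its groups overlapped, and the difference of -0.14 did not pass (adjusted p = 0.444, 95% interval -0.37 to 0.09).

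Around these genes, the third immunoproteasome subunit Psmb10 fell by 0.33 ± 0.06 with DCI (adjusted p = 0.00618). Of 14 class I heavy chain and peptide-loading genes, Psmb10 among them, 5 fell and 1 rose. The gene that rose, H2-Q10, had the largest difference of that list in either direction (1.16 ± 0.27, adjusted p = 0.0152). H2-D1, a classical class I heavy chain, fell by 0.38 ± 0.08 (adjusted p = 0.00716), while H2-K1, another, had a difference of -0.01 (adjusted p = 0.916, 95% interval -0.13 to 0.10). These heavy chains are close paralogs, and the array may not separate them. Among 14 standard proteasome subunits none fell and 1, Psmb7, rose (0.30 ± 0.08, adjusted p = 0.0262), and Psmb5, which Psmb8 replaces, had a difference of -0.07 (adjusted p = 0.462). Of 7 class II genes, 3 fell: Cd74 by 1.21 ± 0.28, H2-Aa by 0.87 ± 0.13 and H2-Eb1 by 0.80 ± 0.17.

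Among the effectors, Parp14, an ADP-ribosyltransferase, read 5.68 with DCI and 5.51 with KGF and DCI at day 17, against 6.52 in control and 6.53 with KGF, and 6.18 and 5.76, against 6.93 and 6.57, at day 24 (-0.85 ± 0.14, adjusted p = 0.00243). Trim30a, a TRIM protein that dampens Toll-like receptor signalling, read 5.28 and 4.77, against 6.30 and 6.18, at day 17, and 6.47 and 5.64, against 6.58 and 6.41, at day 24 (-0.83 ± 0.17, adjusted p = 0.00946). Parp14 was apart on both days, though a dimmer probe set of it had 0.03, whereas the DCI array at day 24 was close to control for Trim30a. Ifit2 fell by 0.57 ± 0.13 (adjusted p = 0.0159) and Oas1a, an oligoadenylate synthetase that activates RNase L, by 0.32 ± 0.10 (adjusted p = 0.0462). The sensors Ifih1 (-0.37 ± 0.09, adjusted p = 0.0197) and Ddx58 (-0.31 ± 0.09, adjusted p = 0.0344) also fell, though further probe sets of Ddx58 had 0.02 and 0.09.

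**Figure D4:**
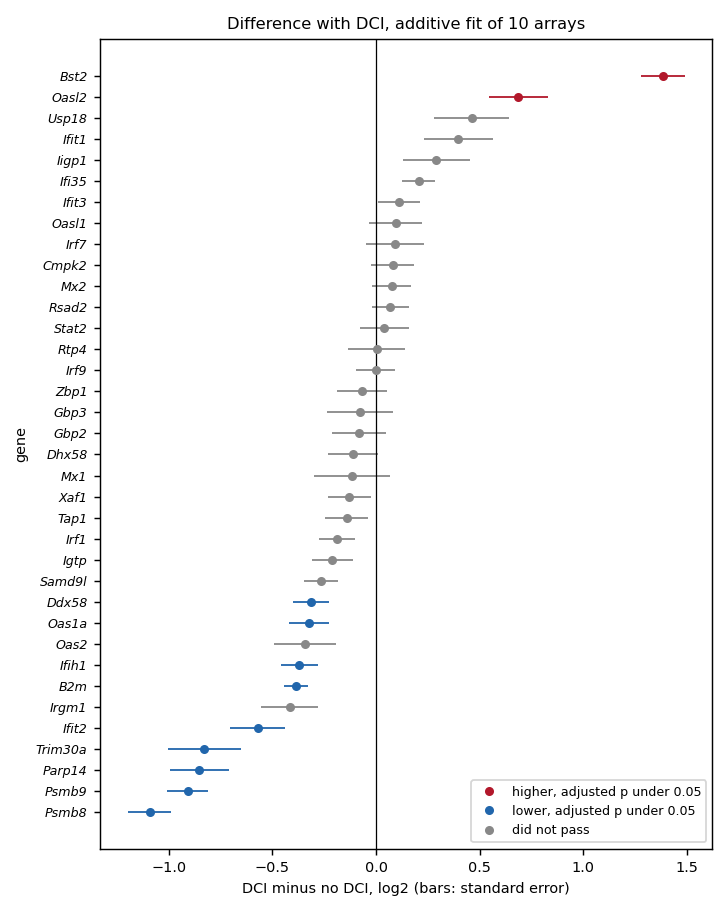
Difference between arrays with and without DCI (x axis, log2) for each of the 36 genes, in order of size; points are estimates of the additive fit of 10 arrays and bars their standard errors. Bst2 (1.38) and Oasl2 (0.69) are higher, 9 genes from Ddx58 to Psmb8 (-1.09) are lower, and 25 did not pass.

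Of the signalling genes, the largest difference belonged to Usp18. It read 6.49 with DCI and 6.32 with KGF and DCI at day 17, against 5.72 in control and 5.45 with KGF, but 7.85 and 7.19, against 7.41 and 7.44, at day 24. The overall difference of 0.46 did not pass (adjusted p = 0.121). Irf1 was lower in all 4 pairs by a small amount (-0.19, adjusted p = 0.182), and Irf7 (0.09), Stat2 (0.04) and Irf9 (-0.0016) were near 0. Of the GTPases, Irgm1 came closest (-0.42 ± 0.14, adjusted p = 0.072), with Igtp at -0.21, Gbp2 and Gbp3 at -0.08 each, and Iigp1 at 0.29.

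Within days, 2 genes were higher with DCI at day 24 (7.99% of all genes) and 8 lower (11.4%), against 4 higher (5.63%) and 6 lower (4.01%) at day 17. Usp18 had a difference of 0.10 at day 24, against 0.82 ± 0.16 at day 17 (adjusted p = 0.00851). Ifit1 had 0.11 at day 24, against 0.68 ± 0.19 at day 17 (adjusted p = 0.0477). Iigp1, an immunity-related GTPase, had 0.68 ± 0.14 at day 24 (adjusted p = 0.00723), against -0.10 at day 17. The difference between the days was tested by itself. That interaction (limma, 3 residual degrees of freedom) passed for 0 of the 36 genes, with 7 at an unadjusted p under 0.05, while 0.533% of all genes passed as higher and 1.97% as lower. Those percentages stand for 456 genes, which numbered 170 without the day 17 DCI array, 143 without the day 17 array with KGF and DCI, 172 without the day 24 KGF array and 181 without the day 24 array with KGF and DCI. Without the day 24 array with KGF and DCI 1 of the 36 passed as higher, and without the day 24 control array 1 as lower. The nearest were Iigp1 (0.77 ± 0.20, adjusted p = 0.0809) and Bst2, whose difference was 1.18 at day 24 and 1.59 at day 17 (-0.41 ± 0.11, adjusted p = 0.0946). For Psmb8 the 95% interval of the difference between days ran from -0.33 to 0.46.

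Other genes of the pathway were mixed under DCI as well. Of 39 other interferon-induced genes, 7 rose and 7 fell. Isg20, an exonuclease that degrades viral RNA, rose by 0.83 ± 0.12, Ifitm1, a membrane protein that blocks virus entry, by 0.68 ± 0.09, and Ly6e, which acts at the cell surface, by 0.59 ± 0.07. Ifi47, an immunity-related GTPase, fell by 0.81 ± 0.11, Nmi, a STAT-interacting protein, by 0.68 ± 0.14, and Gbp7 by 0.59 on the log2 scale. Of 14 genes of nucleic acid sensing, 5 fell, led by the endosomal RNA receptor Tlr7 (-1.73 ± 0.16). Of 10 signalling genes, Irf8, a factor of the myeloid lineage, was the 1 that fell (-0.77 ± 0.10).

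Of 12 interferons and receptors, Ifnar2, a chain of the type I receptor, was the 1 that passed (0.38 ± 0.09, adjusted p = 0.019). Ifnb1 lay between 4.03 and 4.58 on all 10 arrays, below the median of all values (log2 5.27), where small differences are not resolved. Its DCI difference was -0.15 (adjusted p = 0.39), and Ifnar1 had one of -0.25 (adjusted p = 0.0719).

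Macrophage markers were lower with DCI. Of 20, 19 fell, with a median difference of -2.29. At day 17 alone the median was -1.70. In the DCI by day interaction 13 of the 20 passed as lower and 0 as higher (median -1.275). Their summed linear signal was 9620 with DCI and 8266 with KGF and DCI at day 17, against 23840 in control and 24087 with KGF, and 6457 and 5267, against 27884 and 22171, at day 24. Cx3cr1, a chemokine receptor of resident macrophages, read between 4.95 and 5.21 on the DCI arrays, against 7.81 to 9.01 on the arrays of the same days without DCI, and 5.34 and 5.38 at day 8. Csf1r, the macrophage growth factor receptor, kept 8.80 to 10.05 with DCI, against 11.12 to 11.81 without it and 6.94 and 6.98 at day 8. The marker that did not fall was Cd14 (0.37, which did not pass). Of 10 epithelial markers, 6 rose and 1 fell. Of 7 endothelial markers 6 fell at day 24 (median -1.05) and none passed at day 17 (median 0.04), and 4 passed as lower in the DCI by day interaction. Of 6 pluripotency markers 3 were higher at day 24 (median 1.10), none passed at day 17 (median 0.09), and none passed in the interaction (limma, 3 at an unadjusted p under 0.05). Whether these shifts had a part in the differences of Psmb8, Psmb9 and Bst2 was not tested.

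The fourth question was what KGF did, alone and beside DCI. No gene of the 36 passed in the KGF fit (limma, 13 at an unadjusted p under 0.05), and of all genes 0.0055% passed as higher and 0 as lower. That is 1 gene, against 10 with matched arrays as pairs, 65 without either day 8 array, 2 without the day 24 array of KGF or that of both treatments, and 0 without any other single array; none of the 36 passed in any of these fits. Of the 36 differences 34 were below 0, as were 9431 of the 18193 over all genes, with a median of -0.17, against -0.0043 over all genes. The largest were Rtp4 (-0.47 ± 0.12, adjusted p = 0.344), Ifit1 (-0.47 ± 0.15, adjusted p = 0.429), Ifit3 (-0.40 ± 0.09, adjusted p = 0.256) and Dhx58 (-0.39 ± 0.11, adjusted p = 0.369). These are among 14 genes that were lower in each of the 5 matched pairs (5.01% of all genes). None of the 36 was higher in each (5.06%). Of 39 other interferon-induced genes, 29 had a KGF difference below 0, with a median of -0.05. In each of the 5 pairs, 5 of those 39 were lower and 3 higher.

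The pairs were uneven. At day 8, 21 of the 36 genes were lower with KGF, where 56% of all genes were. At day 17, 32 were lower with KGF (49.4% of all genes) and 30 with KGF and DCI against DCI (51.2%). At day 24, 26 were lower with KGF (45.9%), and 35 with KGF and DCI against DCI (49.2%), with a median of -0.41. In that last pair Mx1, a dynamin-like GTPase, was the exception at 0.94, and Rtp4 was lowest at -1.03.

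**Figure D5:**
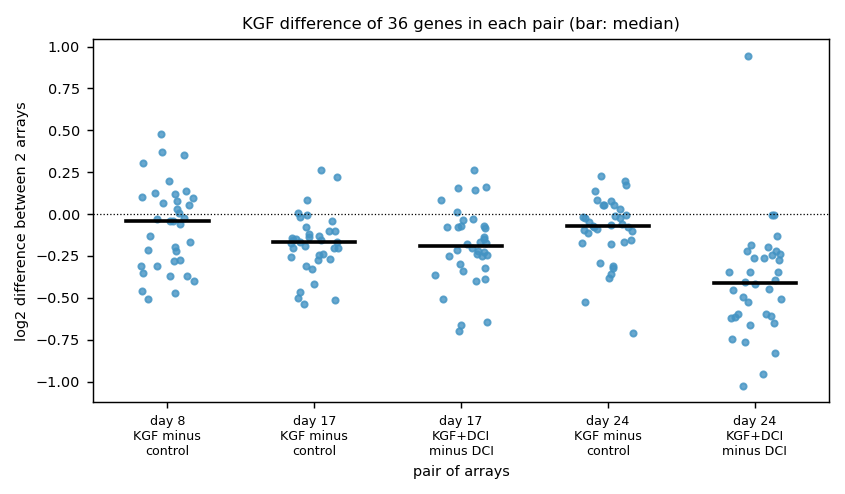
Differences of the 36 genes in each of the 5 pairs of arrays that differ by KGF (y axis, log2), with 1 point per gene and a bar at the median. The medians lie between -0.41, at day 24 beside DCI, and -0.04, at day 8, and most points of the days 17 and 24 pairs lie below 0.

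Beside DCI, Rtp4 read 6.46 with KGF and DCI, against 7.11 with DCI, at day 17 and 7.91, against 8.94, at day 24 (-0.84 ± 0.14, adjusted p = 0.408). Ifit1 read 5.72, against 6.38, and 7.51, against 8.47 (-0.81 ± 0.21, adjusted p = 0.725). Both were lower in each pair, as were 30 of the 36 genes beside DCI (27.1% of all genes) and 24 without DCI (23.2%). None of the 36 passed in the fit of KGF beside DCI (limma, 12 at an unadjusted p under 0.05, 0.011% of all genes higher) or in that without DCI (limma, 0 at an unadjusted p under 0.05, 0.022% higher). The KGF by DCI interaction passed for none of the 36 (limma, 2 at an unadjusted p under 0.05, smallest adjusted p = 1) and for 0 of all genes in either direction. Its 95% interval was -1.05 to -0.14 for Rtp4 and -0.83 to -0.04 for Xaf1, before adjustment. Macrophage markers had a median KGF difference of -0.30 beside DCI and -0.18 without it, and epithelial markers one of 0.32 and 0.29, with no marker of either list past the threshold; their part in the KGF differences was not tested. The KGF by day interaction passed for none either (limma, 0 at an unadjusted p under 0.05).

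Last, the array with both treatments was set against the same day's control, a comparison of 1 array with 1 that carries no test. At day 17, 1 of the 36 genes was at least 2-fold higher (1.76% of all genes) and 4 at least 2-fold lower (1.17%). At day 24 none was higher (2.2%) and 4 were lower (2.56%). Bst2 stood at 1.25 at day 17. Psmb8 was lower on both days (-1.21 and -1.28), as were Psmb9 (-1.07 and -1.14) and Parp14 (-1.01 and -1.17), with Trim30a at -1.53 at day 17 and Ifit2 at -1.10 at day 24. The median of the 36 was -0.26 at day 17 and -0.40 at day 24, against 0.0041 and -0.01 over all genes.

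A gene's other probe sets did not always follow. Of the 5 genes that passed for DCI and had further probe sets of their own, B2m (-0.38) and Trim30a (-0.63) moved alike on them. Psmb8 (-0.07), Parp14 (0.03) and Ddx58 (0.02 and 0.09) did not. These further probe sets of Psmb8 and Parp14 lay at or below log2 4.13 on every array. The Ddx58 probe set with 0.02 was brighter, at 4.24 to 6.09, and rose by 1.16 between days 8 and 17. Between days 8 and 17, 8 of 12 such genes had a probe set with under 0.5 times the difference or the opposite sign, and between days 17 and 24, 3 of 9. The sign turned between days 8 and 17 on 1 further probe set each of Parp14 (-0.08), Rtp4 (-0.03) and Tap1 (-0.19).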

How the data were processed

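Expression was measured on 10 Affymetrix arrays hybridised with biotin-labelled total RNA. The log2 values of 45101 probe sets were deposited by the authors and come from RMA, per the submitters' processing notes, run in Bioconductor, per the labels. That method background-corrects, quantile-normalises and summarises probes, so a difference is set against the rest of the array and is compressed in dim genes. The version of RMA is not given in the sources used here, nor is a genome build. The arrays fell into 10 groups of 1, by day and treatment, and their number limits the precision.

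Of the probe sets, 34945 had 1 gene symbol in the platform annotation, and each of their 18193 genes was read from its brightest probe set. No gene was filtered out. Differences were fitted with limma 3.58.1 in R 4.3.3 (lmFit, and eBayes with a mean trend) on an additive design of day, DCI and KGF using all 10 arrays. Each interaction was fitted in turn on the 8 arrays of the later days, 17 and 24. The Benjamini-Hochberg adjustment ran over all genes, and the fits were tested on simulated data. No set test was run. Lists are described by counts and medians.

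The genes, the pathway lists and the markers were chosen with earlier results of these data known. Every gene is accounted for by role. The up to 4 genes of a role with the largest DCI differences that reached the median of all values on an array are named. Array values are printed for some of these and for others that lead a comparison, and not always for all 3 days. From each pathway list the 3 largest rises and falls past the threshold for DCI, and a few fixed genes, could be named. Promoter sequences are RefSeq's on GRCm38.p6, matched by symbol. None is printed for Iigp1. Alternatives were the variance prior and trend, a second quantile normalisation, removal of the dimmest 40% of genes, averaging or separating the probe sets of a gene, days 17 and 24 alone, matched arrays as pairs, an adjusted p under 0.1, a 2-fold size in addition, and leaving out each array. Plots used matplotlib 3.10.9 and Python 3.11.15.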

Additional observations from a re-analysis of the deposited data

How the results depend on the processing

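Directions turned on single further probe sets of a gene: for DCI on those of Parp14 (0.0267) and Ddx58 (0.0851 and 0.0196), and at day 17 against day 8 on those of Parp14 (-0.0793), Rtp4 (-0.0251) and Tap1 (-0.1899). No other alternative run turned a direction. The day comparisons by probe set and the paired fits were chosen after seeing the data. Requiring a 2-fold size in addition left 1 gene of the 36 higher and 1 lower with DCI (432 of all genes), no gene lower at day 17 against day 8 (2355 of all genes), and 6 higher at day 24 against day 17 (734 of all genes, against 6778 without that size). Removing the lowest 40% of genes left 1 gene higher with DCI, since the dimmer of the 2, Oasl2 (mean log2 4.94), was itself removed. Trim30a (mean log2 5.64) and Psmb9 (mean log2 5.83), both lower with DCI, were removed there as well. No gene of the 36 that stayed in lost its call. That setting called 2 of all genes for KGF. A second quantile normalisation gave 5 genes of the 36 lower at day 17 against day 8, in place of 1. The KGF fit called 0 of all genes without a variance trend or with the mean of probe sets, 65 with days 17 and 24 alone and 13 at an adjusted p under 0.1, against 1. The DCI by day interaction called 138 of all genes without a variance trend, 223 with the mean of probe sets and 814 at an adjusted p under 0.1 (with 1 gene of the 36 higher and 1 lower), against 456. With the mean of probe sets, 3 genes of the 36 were at least 2-fold apart between the array with both treatments and control at day 17, against 5. The cause of these shifts was not tested, beyond the fewer calls that a stricter size gives and the removal of dim genes themselves. Leaving out 1 array at a time gave 5 to 11 genes lower and 2 to 4 higher with DCI (1638 to 2834 of all genes), 22 to 25 higher and 0 to 1 lower at day 17 against day 8 (5819 to 7696), 21 to 27 higher and 0 lower at day 24 against day 17 (5298 to 6835), 0 to 1 either way for the DCI by day interaction (143 to 454), and 0 to 65 of all genes for KGF. For single genes that passed, 176 alternative values for DCI, 412 at day 17 against day 8 and 428 at day 24 against day 17 kept the call, and 33, 23 and 44 lost it with the same direction. The labels give no replicate numbers, so arrays were paired by condition. With matched arrays as pairs, 2 genes were higher and 9 lower with DCI (2531 of all genes, 4 pairs), and KGF called none of the 36 (limma, 14 at an unadjusted p under 0.05) and 10 of all genes (5 pairs). With 1 array per condition, array noise and departures from additive effects cannot be told apart, and for genes near the bottom of the scale, such as Cmpk2 and Mx1, small differences are not resolved.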
